A study of Homo sapiens with 6 samples.

Results

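The genes described here are 51 genes of glutathione metabolism, of the NRF2 pathway and of cellular redox defence, of which 45 could be measured. They were chosen by name, and each is represented by the brightest probe set that carries its symbol alone. PRDX5, MGST1, AKR1B1, AKR1A1 and FTH1 had no such probe set in the annotation used and are not analysed here. The 4 probe sets of SOD2 also carry the symbol of its overlapping transcript, and SOD2 is not counted among the 45. The 45 genes are set beside all 11963 genes named in the same way. Each of 6 arrays received RNA from 1 sample of HSC2, by its label an oral squamous carcinoma line of human origin. The labels name 3 samples as stable transfectants of full-length wild-type MALT1, the paracaspase of the NF-kappaB pathway. The other 3, called mock, are stable transfectants of the empty vector. Both were kept in the same serum-containing medium, and the study sought genes that respond to MALT1. The labels do not say whether either line is a clone or a pool, nor whether the samples of a group are separate cultures, so the p-values rest on a spread between samples that may be technical.

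NRF2, the product of NFE2L2, is a transcription factor that is bound by KEAP1 and passed to degradation in unstressed cells. When KEAP1 is modified by oxidants or electrophiles, NRF2 accumulates, pairs with small MAF proteins and binds antioxidant response elements in genes for glutathione synthesis, thioredoxin recycling, quinone reduction and NADPH production. Glutathione and thioredoxin then supply electrons to the peroxidases that remove hydrogen peroxide and lipid peroxides. Many squamous carcinomas are known to carry changes that keep this pathway active.

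The signal of MALT1 ran counter to the labels, and the groups are therefore called by label only. Its brightest probe set read 175, 194 and 178 on the arrays labelled MALT1, against 248, 253 and 257 on the mock arrays (−0.47 ± 0.08, adjusted p = 0.0105). The other MALT1 probe sets differed by −1.08 (adjusted p = 0.0022) and −0.28 (adjusted p = 0.097, not passing). Where these probe sets lie on the transcript was not checked, so whether they read the transgene is not known. Lineage markers also differed between the groups. Of 18 luminal glandular markers 17 were higher and 0 lower, with summed signals of 80868 to 90134 on the arrays labelled MALT1 against 9150 to 9891 on the mock arrays. A signal is called dim at or below 17.6, the highest reading of the bacterial trp controls. In that list KRT19, TFF1, FOXA1, SPDEF, CLDN4 and MUC1 lay at or below the level for dim signals on every mock array, and PGR did so on all arrays. Of 14 measured squamous markers 0 were higher and 13 lower, with summed signals of 27227 to 29950 against 67001 to 76098, and KRT16 was dim on every array labelled MALT1. The defining squamous keratins KRT5 and KRT14 were 5.55-fold and 3.51-fold lower on the arrays labelled MALT1, though above the dim level on every array. The luminal genes GATA3, ESR1 and TFF1 were 67.1-fold, 15.2-fold and at least 878-fold higher there. These levels put in doubt that the groups are the same cell line apart from the transgene. An effect of MALT1 and a difference between cell lines cannot be told apart in any result that follows. The part of these lineage differences in the redox results was not tested. Of 8 mesenchymal markers 0 rose and 1 fell (LUM, dim on the arrays labelled MALT1 and at most 21.2 on the mock arrays). Of 4 leukocyte markers 1 rose and 1 fell, while PTPRC was dim on every array. The riser was CD14, at most 27.1 on the arrays labelled MALT1 and dim on the mock arrays. The faller was LAPTM5, at 46.7 to 63.5 on the arrays labelled MALT1 against 333 to 353 on the mock arrays. Array medians were 69.3 to 79.0 in the group labelled MALT1, against 64.1 to 68.2 in the mock group. Having 3 arrays a group bounds how precise every value can be.

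The redox genes differed widely between the groups and in both directions. At an adjusted p under 0.05 in limma's moderated test, 33 of 45 passed (73.3%), against 40.4% of all genes. On the arrays labelled MALT1, 21 were higher (46.7%, against 21.1% of all genes) and 12 lower (26.7%, against 19.2%), while 12 did not pass. A change of at least 2-fold was reached by 20 that passed, 14 higher and 6 lower (44.4%, against 20.5% of all genes). At or above the redox genes' median signal, 16 of 23 redox genes passed (69.6%), against 58.0% of all 1748 genes that bright. Of those 23, 11 were higher (47.8%, against 29.2% of all genes that bright) and 5 lower (21.7%, against 28.8%). At that brightness the share of lower redox genes was thus not above that of all genes. With 23 genes these shares are a description, and their gap to all genes that bright was not tested. The groups did not overlap in 38 of the 45, against 54.6% of all genes. The median difference in log2(signal + 1), arrays labelled MALT1 minus mock arrays, was 0.19 for the redox genes and 0.08 for all genes. Without MALT1 replicate 3, which had the highest array median and the fewest dim probe sets (25.6%), it was 0.18 for the redox genes, and over all probe sets −0.0019, against 0.08 with all arrays. Ignoring direction, the median size was 0.90 for the redox genes and 0.54 for all genes. No redox gene was dim on all 6 arrays. In these bulk samples fewer cells of a type and less RNA per cell cannot be told apart.

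**Figure D1:**
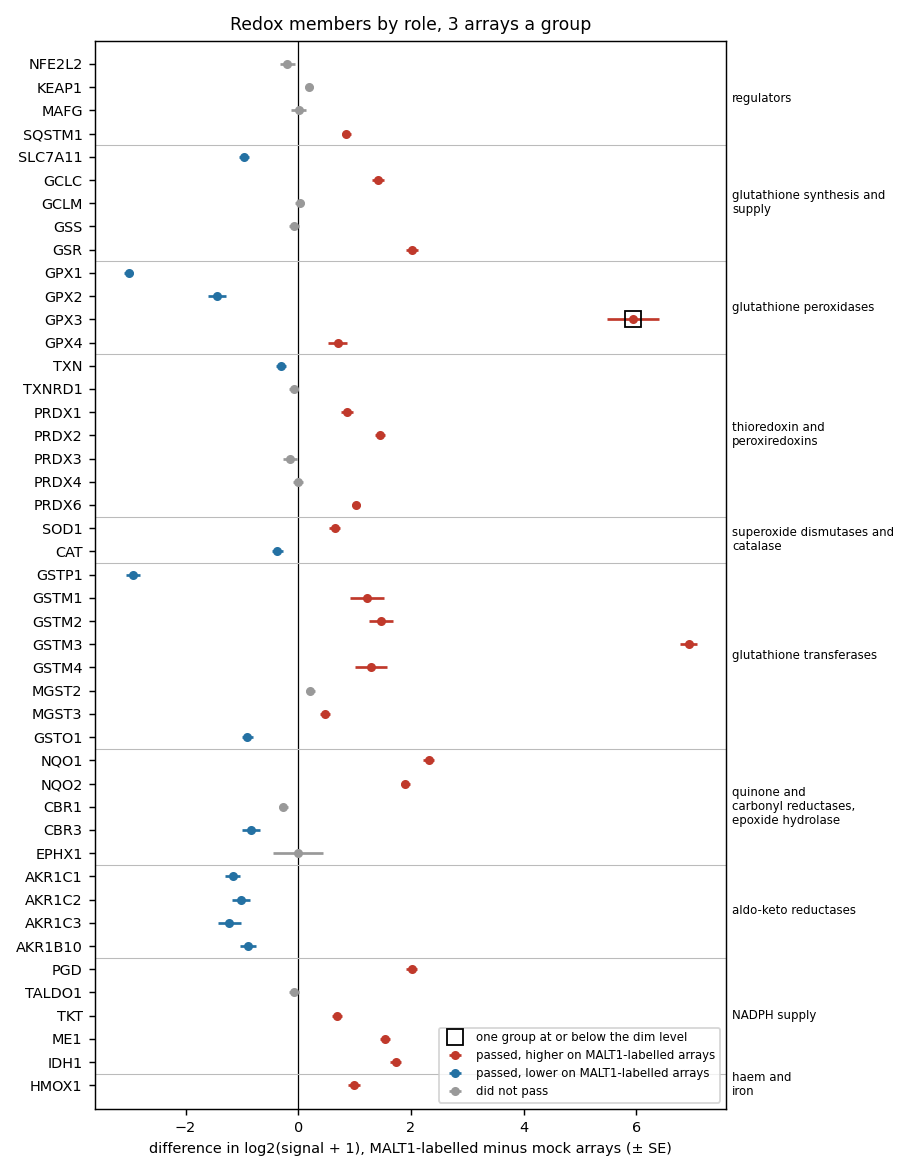
Difference in log2(signal + 1), arrays labelled MALT1 minus mock arrays, for the 45 measured redox genes grouped by role (points, with the standard error of the fit as bars; 3 arrays per group). Red points passed and were higher, blue points passed and were lower, grey points did not pass. The 4 aldo-keto reductases shown lie to the left. Those of the NADPH supply group that passed, TKT among them, all lie to the right. The square marks GPX3, which was dim on all 3 mock arrays.

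**Figure D2:**
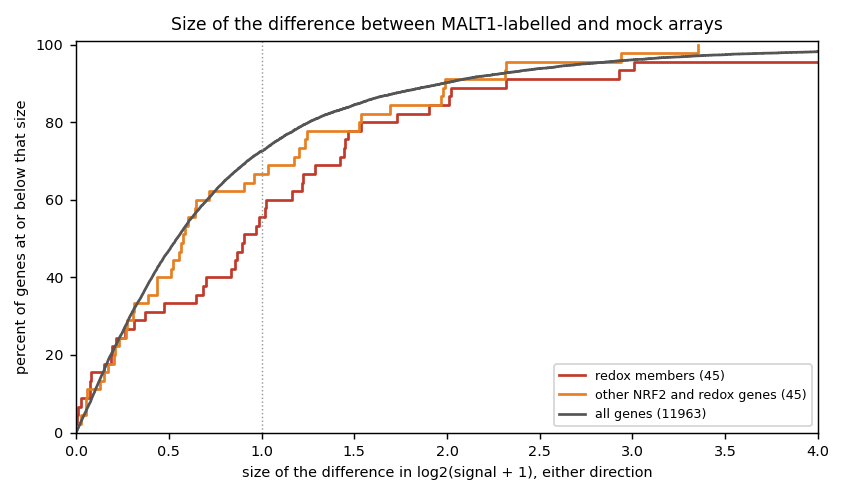
Percent of genes (vertical axis) whose difference in log2(signal + 1) is at or below a given size in either direction (horizontal axis, drawn up to 4), for 45 redox genes, 45 other NRF2 and redox genes and 11963 genes in all. The dotted line marks 1, a 2-fold change. The curve of the redox genes runs below that of all genes over most of the range, with median sizes of 0.90 and 0.54.

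Of the 4 regulators among the 51 genes, SQSTM1 alone passed (25%, against 40.4% of all genes). MAFF and CUL3, described with the wider list, were lower. NFE2L2 read 2662, 2578 and 2034 on the arrays labelled MALT1, against 2897, 2688 and 2670 on the mock arrays. All 3 arrays labelled MALT1 lay below the mock arrays, but the difference of −0.19 ± 0.13 (SE) on the log2 scale did not pass (adjusted p = 0.35). KEAP1, the adaptor that presents NRF2 to a ubiquitin ligase, read 549, 532 and 555, against 480, 484 and 473 on the mock arrays. The groups of KEAP1 did not overlap either, and the difference of 0.19 ± 0.08 did not pass (adjusted p = 0.12), although it did with the dim probe sets left out (adjusted p = 0.0467) and with limma-trend (adjusted p = 0.0436), in a range of 0.0436 to 0.712 over 13 alternative settings. MAFG, a small MAF partner of NRF2, overlapped between the groups at 353, 321 and 288 on the arrays labelled MALT1 against 281, 317 and 362 on the mock arrays (adjusted p = 0.98). SQSTM1 encodes p62, a selective autophagy receptor that binds KEAP1 and is itself an NRF2 target. It read 815, 792 and 753, against 432, 419 and 452 on the mock arrays. Every array labelled MALT1 was above every mock array, a difference of 0.86 ± 0.08 (adjusted p = 0.0013). The call rests on this probe set, since the other one for SQSTM1 read 7.18 to 42.4 over all arrays with overlapping groups, and the mean of both did not pass (adjusted p = 0.889), the highest of the 13 settings. These are transcript levels, and the amount of NRF2 protein was not measured.

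Among the genes of glutathione synthesis and supply, the cystine importer was lower while the first enzyme of synthesis and the recycling reductase were higher. Among the 5 measured, 2 passed as higher and 1 as lower. Together they are 60%, against 40.4% of all genes and 58.0% of all genes at or above the redox genes' median signal. SLC7A11, the transport subunit of the cystine-glutamate antiporter xCT, read 854, 840 and 771 on the arrays labelled MALT1, against 1646, 1641 and 1539 on the mock arrays. Its groups were far apart, with a difference of −0.97 ± 0.09 (adjusted p = 0.001), and both other SLC7A11 probe sets also passed as lower. GCLC, the catalytic subunit of glutamate-cysteine ligase, which makes the first and limiting step of glutathione synthesis, read 1988, 1740 and 1860, against 638, 701 and 748 on the mock arrays. This was a rise of 2.68-fold (1.42 ± 0.11 on the log2 scale, adjusted p = 0.00054), and the other GCLC probe set rose by 1.05. The partner subunit GCLM did not share it. GCLM read 1955, 1862 and 2085 on the arrays labelled MALT1 and 1936, 1982 and 1881 on the mock arrays, with overlapping groups (adjusted p = 0.87). GSS, which completes the tripeptide, averaged 1466 ± 92.6 on the arrays labelled MALT1 and 1544 ± 57.6 on the mock arrays (SD, n = 3 each), and did not pass. GSR, the reductase that returns oxidised glutathione to its reduced form with NADPH, read 529, 450 and 515, against 128, 113 and 124 on the mock arrays. The rise of GSR was 4.06-fold (2.02 ± 0.11 on the log2 scale, adjusted p = 0.0002).

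The glutathione peroxidases split by gene, and all 4 passed. The share that passed was 40.4% among all genes and 58.0% among all genes at or above the redox genes' median signal. GPX1, the widespread cytosolic enzyme that reduces hydrogen peroxide, read 321, 325 and 337 on the arrays labelled MALT1, against 2525, 2721 and 2689 on the mock arrays. It was the redox gene with the deepest fall, 8.06-fold lower (−3.01 ± 0.08 on the log2 scale, adjusted p = 5.3e-05). GPX2, known from gastrointestinal epithelium and an NRF2 target, was lower too, at 214, 166 and 240 against 578, 540 and 554 on the mock arrays (−1.44 ± 0.16, adjusted p = 0.0019). GPX3, the secreted plasma form, read 316, 301 and 352 on the arrays labelled MALT1 and only 1.88, 8.98 and 4.06 on the mock arrays. The mock readings are within the dim range, so GPX3 was at least 18.3-fold higher by this probe set (adjusted p = 0.00062). The bound is the geometric mean signal over 17.6. A second GPX3 probe set also passed as higher, by less than that bound, at 10.5-fold (3.40 on the log2 scale). Its mock readings of 14.8 to 22.2 were near the dim level. GPX4, which reduces lipid peroxides within membranes, read 2994, 3602 and 2436, against 1765, 1931 and 1793 on the mock arrays. Its groups did not overlap (0.70 ± 0.16, adjusted p = 0.025), but the 3 arrays labelled MALT1 were spread. The GPX4 call was lost without MALT1 replicate 1 or without any 1 of the mock arrays (adjusted p = 0.0643 to 0.081) and with each array centred on its median (adjusted p = 0.0945, the highest of the 13 settings).

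In the thioredoxin and peroxiredoxin system, 3 of 7 measured genes passed as higher and 1 as lower. Together they are 57.1%, against 40.4% of all genes and 58.0% of all genes at or above the redox genes' median signal. The 3 that rose were peroxiredoxins, enzymes that reduce peroxides through a reactive cysteine. PRDX2, a cytosolic form abundant in red cells, read 6921, 6944 and 6406 on the arrays labelled MALT1, against 2379, 2534 and 2503 on the mock arrays. The difference was 1.45 ± 0.08 (adjusted p = 0.00025). PRDX2 has 4 probe sets, and they did not move alike: 1 other passed as higher by 1.82, and the other two overlapped between the groups with differences of −0.44 and 0.20. PRDX6, which uses glutathione in place of thioredoxin, read 6056, 6007 and 5924, against 2897, 3055 and 2891 on the mock arrays (1.02 ± 0.08, adjusted p = 0.00056). PRDX1, a cytosolic form and NRF2 target, read 14101, 14260 and 16282, against 7699, 7936 and 8859 on the mock arrays (0.87 ± 0.11, adjusted p = 0.0029). In each of these genes all 3 arrays labelled MALT1 lay above all 3 mock arrays. The mitochondrial PRDX3 and the endoplasmic reticulum form PRDX4 overlapped between the groups, with differences of −0.15 ± 0.13 and −0.01 ± 0.09. TXNRD1, the NADPH-dependent reductase of thioredoxin, averaged 3558 ± 67.1 on the arrays labelled MALT1 and 3763 ± 88.4 on the mock arrays and did not pass (−0.08 ± 0.08, adjusted p = 0.49). TXN, thioredoxin itself, read 10495, 11180 and 10617, against 12959, 12932 and 14184 on the mock arrays. That small fall of −0.31 ± 0.09 passed with all arrays (adjusted p = 0.043) and was lost on leaving out any 1 of the 6 (adjusted p = 0.0845 to 0.128).

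The 2 measured genes against superoxide and hydrogen peroxide differed in opposite directions. SOD1, the cytosolic copper-zinc superoxide dismutase, read 9868, 9716 and 10627 on the arrays labelled MALT1, against 6166, 6308 and 6842 on the mock arrays (0.65 ± 0.09, adjusted p = 0.0044). CAT, the peroxisomal catalase, read 2361, 2400 and 2533, against 2856, 3188 and 3397 on the mock arrays (−0.37 ± 0.10, adjusted p = 0.041). The groups of each did not overlap. On each of the 4 probe sets that SOD2 shares with its overlapping transcript, the arrays labelled MALT1 lay below the mock arrays. The brightest read 303, 367 and 197, against 615, 542 and 532 on the mock arrays, and passed (adjusted p = 0.0304). Another passed at −0.88 (adjusted p = 0.0204). A further probe set did not pass at −0.42 (adjusted p = 0.0794), nor did the last, which was dim on every array. Which transcript these probe sets read was not tested. The CAT call was lost without any 1 of the arrays labelled MALT1, without mock replicate 2 and without mock replicate 3 (adjusted p = 0.0634 to 0.122), and with the mean of its 3 probe sets (adjusted p = 0.203, the highest of the 13).

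The glutathione transferases, which join glutathione to electrophiles, held the largest rise and the second deepest fall among the redox genes, leaving aside the bound for GPX3. Among the 8 measured, 5 passed as higher and 2 as lower. Together they are 87.5%, against 40.4% of all genes and 58.0% of all genes at or above the redox genes' median signal. GSTM3, a mu-class enzyme, read 9646, 9716 and 10730 on the arrays labelled MALT1, against 70.7, 76.4 and 98.6 on the mock arrays. All 6 readings are above the dim level, and the rise was 122-fold (6.93 ± 0.15 on the log2 scale, adjusted p = 5.3e-05). GSTP1, the pi-class enzyme and a widespread transferase of epithelial tumours, ran the other way at 666, 570 and 600, against 4316, 4420 and 5256 on the mock arrays. It was 7.6-fold lower on the arrays labelled MALT1 (−2.93 ± 0.12 on the log2 scale, adjusted p = 0.0001). GSTO1, an omega-class enzyme with thioltransferase activity, was lower by less, at 3349, 3341 and 3795 against 6236, 6362 and 7012 on the mock arrays (−0.90 ± 0.10, adjusted p = 0.0021).

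The other mu-class genes were near the dim end and rose by far less than GSTM3. In the RefSeq gene order GSTM4, GSTM2, GSTM1, GSTM5 and GSTM3 follow each other on chromosome 1. GSTM2 read 84.0, 64.6 and 109 on the arrays labelled MALT1, against 27.1, 31.4 and 30.8 on the mock arrays (1.47 ± 0.21, adjusted p = 0.0046). GSTM4 read 56.8, 67.0 and 83.5, against 40.2, 22.8 and 22.2 (1.29 ± 0.28, adjusted p = 0.02), and GSTM1 58.3, 89.7 and 119, against 35.5, 30.3 and 44.2 (1.22 ± 0.30, adjusted p = 0.03). The second GSTM1 probe set did not pass (0.83, adjusted p = 0.061), and that of GSTM4 passed at 34.3, 27.7 and 72.6 against dim readings on all mock arrays. The groups did not overlap on the brightest probe set of any of these, but the calls of GSTM1 and GSTM4 depended on single arrays. The GSTM1 call was lost on leaving out any 1 array but MALT1 replicate 1 (adjusted p = 0.0533 to 0.0945). The GSTM4 call was lost without MALT1 replicate 2 or 3 and without mock replicate 2 or 3 (adjusted p = 0.0597 to 0.0689). GSTM5, which stands between GSTM1 and GSTM3 and belongs to a wider list of redox genes, overlapped between the groups (0.44 ± 0.54, adjusted p = 0.6). The probe sets used for GSTM1, GSTM2 and GSTM4 are of the x_at kind, which can bind several related transcripts, so these 3 genes are uncertain singly, and how far they read GSTM3 was not tested. Of the microsomal transferases, MGST3 rose (0.47 ± 0.09, adjusted p = 0.012), while MGST2 averaged 1081 ± 37.1 on the arrays labelled MALT1 against 932 ± 23.8 on the mock arrays and did not pass (adjusted p = 0.1). MGST2 did pass with the dim probe sets left out (adjusted p = 0.0403) and with limma-trend (adjusted p = 0.0155), in a range of 0.0155 to 0.598 over the 13 settings.

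Both quinone reductases were strongly higher on the arrays labelled MALT1. NQO1, which reduces quinones by 2 electrons and is among the most used reporters of NRF2 activity, read 12037, 11791 and 13456 there, against 2581, 2409 and 2484 on the mock arrays. The rise was 4.98-fold (2.32 ± 0.09 on the log2 scale, adjusted p = 0.0001), and the other two NQO1 probe sets rose by 2.12 and 2.0. NQO2, a relative that uses dihydronicotinamide riboside, read 2284, 2200 and 2424, against 604, 610 and 629 on the mock arrays (1.90 ± 0.08, adjusted p = 0.00012). The carbonyl reductases did not follow. CBR3 fell, at 548, 546 and 682 against 935, 1226 and 1018 on the mock arrays (−0.84 ± 0.16, adjusted p = 0.011). Its chromosome 21 neighbour CBR1 averaged 975 ± 33.7 on the arrays labelled MALT1 and 1170 ± 16.4 on the mock arrays and did not pass (−0.26 ± 0.08, adjusted p = 0.053). CBR1 passed as lower in 5 of the 13 alternative settings (adjusted p = 0.00408 to 0.155 over all 13). EPHX1, the microsomal epoxide hydrolase, was dim on 5 of 6 arrays, with 1 reading of 20.6 on MALT1 replicate 3, and no fold is given.

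The 4 measured aldo-keto reductases of the AKR1 family, NADPH-dependent enzymes that reduce carbonyls, steroids and prostaglandins, were lower on the arrays labelled MALT1. All 4 passed, against 40.4% of all genes, with differences between −1.22 and −0.90. AKR7A2 and AKR7A3, aldo-keto reductases of another family from a wider list, did not pass and had differences of 0.31 ± 0.09 (adjusted p = 0.053, groups not overlapping) and 0.17 ± 0.23. AKR1C1, which inactivates progesterone, read 621, 531 and 696, against 1340, 1350 and 1434 on the mock arrays (−1.17 ± 0.13, adjusted p = 0.0018). AKR1C2, which acts on dihydrotestosterone, read 457, 397 and 530, against 818, 954 and 1028 on the mock arrays (−1.02 ± 0.15, adjusted p = 0.0056). For AKR1C3, which forms testosterone and prostaglandin F, the readings were 84.9, 52.7 and 68.9, against 144, 163 and 171 on the mock arrays (−1.22 ± 0.20, adjusted p = 0.0072). AKR1B10, which reduces retinal, read 178, 145 and 164, against 303, 264 and 344 on the mock arrays (−0.90 ± 0.14, adjusted p = 0.0067). No array labelled MALT1 reached a mock array in any of the 4. AKR1C1, AKR1C2 and AKR1C3 are neighbours on chromosome 10 with related sequence. The brightest probe sets of AKR1C1 and AKR1C2 are of the x_at kind, so the falls of these 2 are not separate evidence. Another AKR1C1 probe set, near the dim level, had a difference of 1.37 with overlapping groups, and the mean of the 3 did not pass (adjusted p = 0.288, the highest of the 13 settings).

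The enzymes grouped under the supply of NADPH, the electron source of glutathione and thioredoxin reduction, were mostly higher on the arrays labelled MALT1. Of this group PGD, IDH1 and ME1 form NADPH. TKT and TALDO1 belong to the non-oxidative pentose phosphate branch, which forms none itself. Among the 5 measured, 4 passed as higher and 0 as lower, with a median difference of 1.53. The 80% that passed compare with 40.4% of all genes and 58.0% of all genes at or above the redox genes' median signal. PGD, the second NADPH-forming enzyme of the pentose phosphate pathway, read 1252, 1287 and 1283, against 303, 341 and 303 on the mock arrays. This was a 4.03-fold rise (2.01 ± 0.09 on the log2 scale, adjusted p = 0.00012). IDH1, the cytosolic NADP-dependent isocitrate dehydrogenase, read 4872, 4748 and 4583, against 1285, 1504 and 1500 on the mock arrays (1.73 ± 0.10, adjusted p = 0.00025). ME1, the cytosolic malic enzyme, read 5569, 5548 and 5328, against 1934, 1988 and 1763 on the mock arrays (1.53 ± 0.09, adjusted p = 0.00025). TKT, the transketolase of the non-oxidative branch, rose by less, at 6154, 6068 and 6045 against 3632, 3692 and 4043 on the mock arrays (0.69 ± 0.09, adjusted p = 0.0029). TALDO1, the transaldolase of the same branch, overlapped between the groups at 4670 ± 209 on the arrays labelled MALT1 and 4920 ± 216 on the mock arrays. HMOX1, the inducible haem oxygenase, read 114, 129 and 126, against 57.5, 67.9 and 59.4 on the mock arrays, with no overlap (0.99 ± 0.11, adjusted p = 0.0019).

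**Figure D3:**
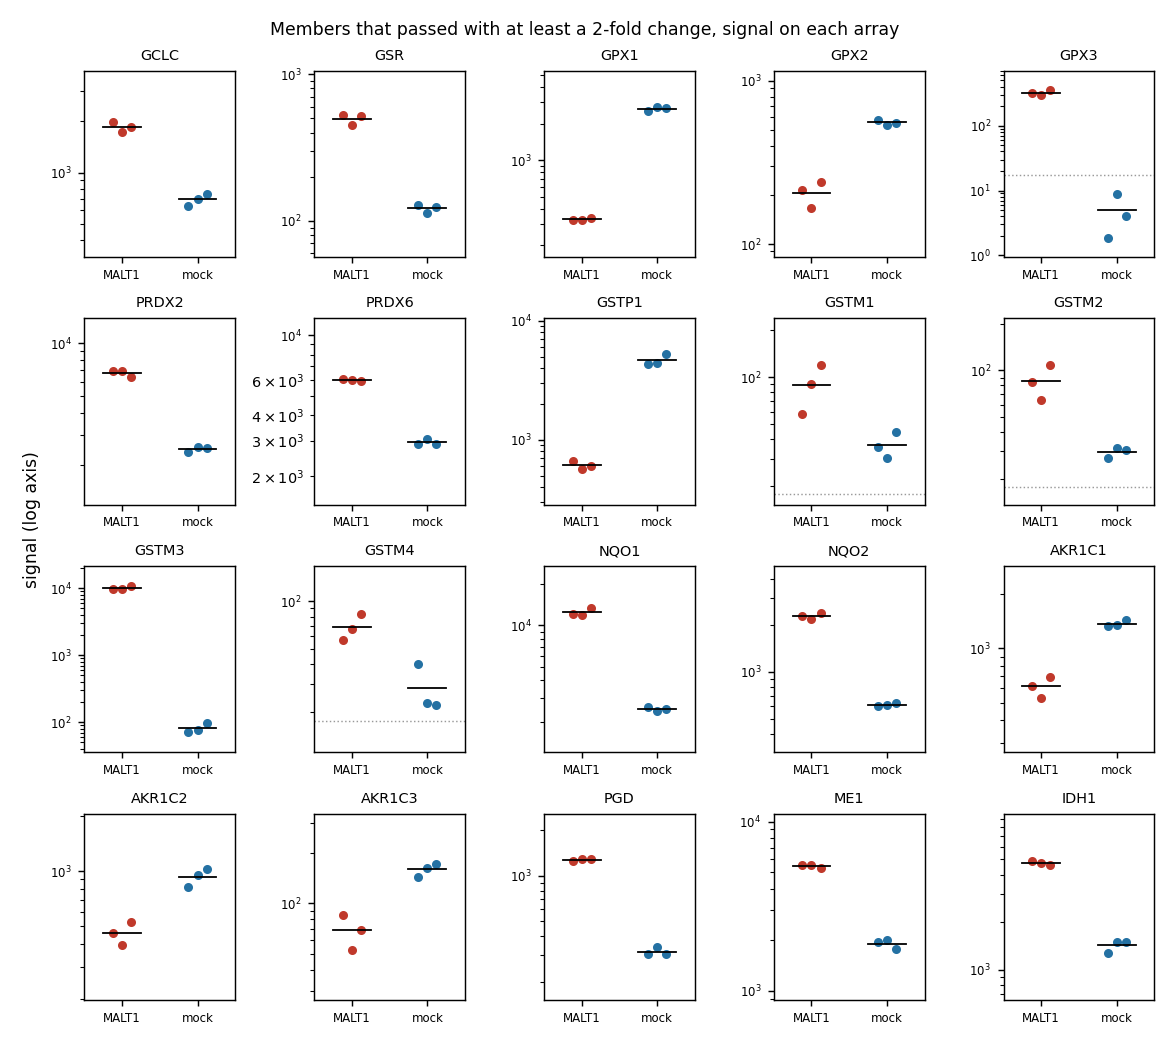
Signal on each of the 3 arrays labelled MALT1 (red, left) and the 3 mock arrays (blue, right) for the 20 redox genes that passed with at least a 2-fold change, on logarithmic axes that differ between panels. Black bars are group means and the dotted line, where in range, is the dim level of 17.6. No panel has overlapping groups, which follows largely from choosing genes that passed with such a change. GSTM3 and GPX3 show the widest separations.

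Some of the genes carry the antioxidant response element letters close to their start, among them genes that rose, fell and did not pass. The motif TGACNNNGC was searched on both strands of the RefSeq promoter table (GRCh38.p14, 250 bases before to 50 after each start), which matched 35 of the 45 measured genes with 46 promoters. It was found in 13 of these promoters (28.3%), against 13.3% of all 35116 promoters of the same length. The genes were chosen for this pathway, so the higher share is a description. The motif was in 4 of 21 promoters of genes that rose, 3 of 10 of genes that fell and 6 of 15 of genes that did not pass. Of the 17 matches, 2 also hold TGANTCA, the AP-1 letters. The following stretches are shown because they place similar letters beside different results, each on the strand of its gene with the match in capitals. The first 3 genes rose, the next 3 fell and the last 2 did not pass.
ME1 (chr6:83431160-83431208): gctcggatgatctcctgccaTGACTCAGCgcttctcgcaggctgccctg
IDH1 (chr2:208255186-208255234): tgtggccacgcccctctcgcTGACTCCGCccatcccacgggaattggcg
PGD (chr1:10398843-10398891): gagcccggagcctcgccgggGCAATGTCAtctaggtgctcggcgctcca
GSTP1 (chr11:67583726-67583774): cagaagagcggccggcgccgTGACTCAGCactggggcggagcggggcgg
GPX2 (chr14:64942839-64942887): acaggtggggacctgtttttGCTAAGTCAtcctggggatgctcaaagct
GSTO1 (chr10:104254646-104254694): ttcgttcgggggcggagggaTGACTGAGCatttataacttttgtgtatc
GCLM (chr1:93909436-93909484): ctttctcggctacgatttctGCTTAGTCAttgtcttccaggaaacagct
TXNRD1 (chr12:104286910-104286958): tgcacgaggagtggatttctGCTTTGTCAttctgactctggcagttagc
ME1 and GSTP1 hold the same 9 letters, which begin 137 and 66 bases before their starts, and ME1 differed by 1.53 and GSTP1 by −2.93 on the log2 scale. PGD, GPX2, GCLM and TXNRD1 carry the motif on the opposite strand, where its letters run in reverse complement. NQO1 and GCLC gave no match. Whether they are among the 35 genes whose promoters were searched is not shown here, so nothing is concluded about the motif in them.

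Other genes of the same pathways, from a wider list of 53 of which 45 were measured, also went both ways. Of these, 15 were higher on the arrays labelled MALT1 (33.3%, against 21.1% of all genes), 9 were lower (20%, against 19.2%) and 21 did not pass. The median difference was 0.05, against 0.08 for all genes. IDH2, the mitochondrial NADP-dependent isocitrate dehydrogenase, read 1753, 1610 and 1466, against 140, 142 and 192 on the mock arrays (3.35 ± 0.16, adjusted p = 0.00015), the largest rise in this list. BLVRB, a flavin and biliverdin reductase, read 3169, 3211 and 2974, against 399, 379 and 442 on the mock arrays (2.94 ± 0.10, adjusted p = 6.9e-05). MSRB2, a mitochondrial methionine sulfoxide reductase, rose by 2.32, UGDH, which makes UDP-glucuronate, by 1.99, and NNT, the mitochondrial transhydrogenase that makes NADPH, by 1.97. The lipid aldehyde transferase GSTA4 rose by 2.31 ± 0.39, but its mock readings of 27.4, 22.3 and 10.7 lay around the dim level, so that size is uncertain. The fall of SLC7A11 was accompanied by one of SLC3A2, the heavy chain that carries xCT to the membrane. SLC3A2 read 1180, 1077 and 1008, against 2732, 2407 and 2533 on the mock arrays (−1.23 ± 0.10, adjusted p = 0.0008). MAFF, another small MAF protein, read 269, 298 and 324, against 897, 850 and 837 on the mock arrays (−1.54 ± 0.10, adjusted p = 0.00039). The mitochondrial malic enzyme ME2, at −1.52 ± 0.09, ran against its cytosolic relative ME1, and the glutaredoxin GLRX fell by 1.17 while the mitochondrial GLRX2 rose by 1.24. CUL3, the ligase scaffold that works with KEAP1, fell by 0.51, whereas the NRF2 competitor BACH1 did not pass (−0.44 ± 0.20). The ferritin light chain FTL and PARK7 overlapped between the groups at −0.13 ± 0.10 and 0.01 ± 0.08.

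**Figure D4:**
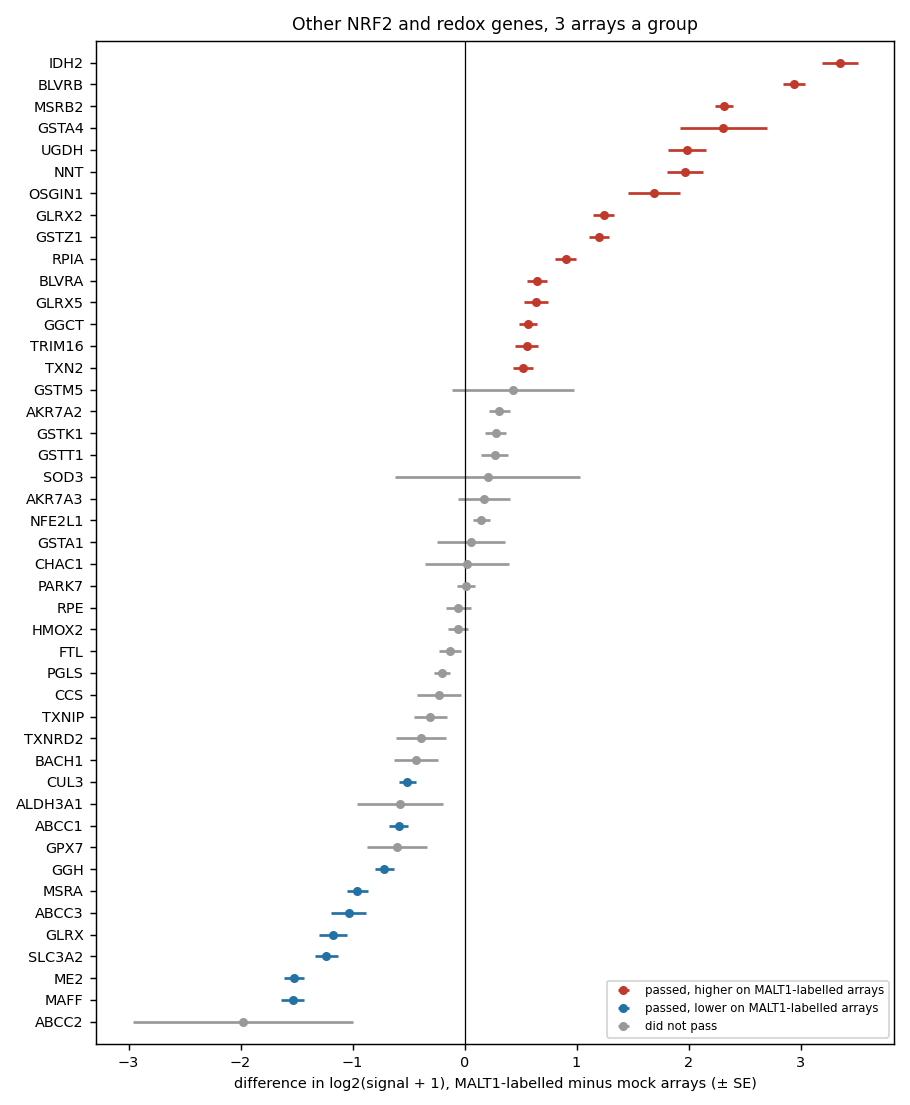
Difference in log2(signal + 1), arrays labelled MALT1 minus mock arrays, for 45 other NRF2 and redox genes in order of size (points, with the standard error of the fit as bars; 3 arrays per group). Red points passed and were higher, blue points passed and were lower, grey points did not pass. IDH2 and BLVRB stand at the top, and MAFF and ME2 are the lowest that passed, while ABCC2, at −1.98 with a standard error of 0.98, lies lower and did not pass.

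Genes read by several probe sets allow a look at how far a difference rests on its probe. Of the redox genes, 17 had more than 1 single-symbol probe set, with 24 besides the brightest. Of 17 such probe sets with a mean signal over 50, 15 had the sign of the brightest one, the exceptions being 1 each for GSS and PRDX2. Of the 7 at 50 or less, 5 had the same sign, the exceptions being 1 each for SQSTM1 and AKR1C1. Among the 24, 15 passed in the direction of the brightest probe set and 0 passed in the opposite one. TKT's second probe set rose by 0.78 and the second of ME1 by 1.41, close to 0.69 and 1.53 for the brightest. The sizes were less alike for GSTM4, whose second probe set was dim on all mock arrays.

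**Figure D5:**
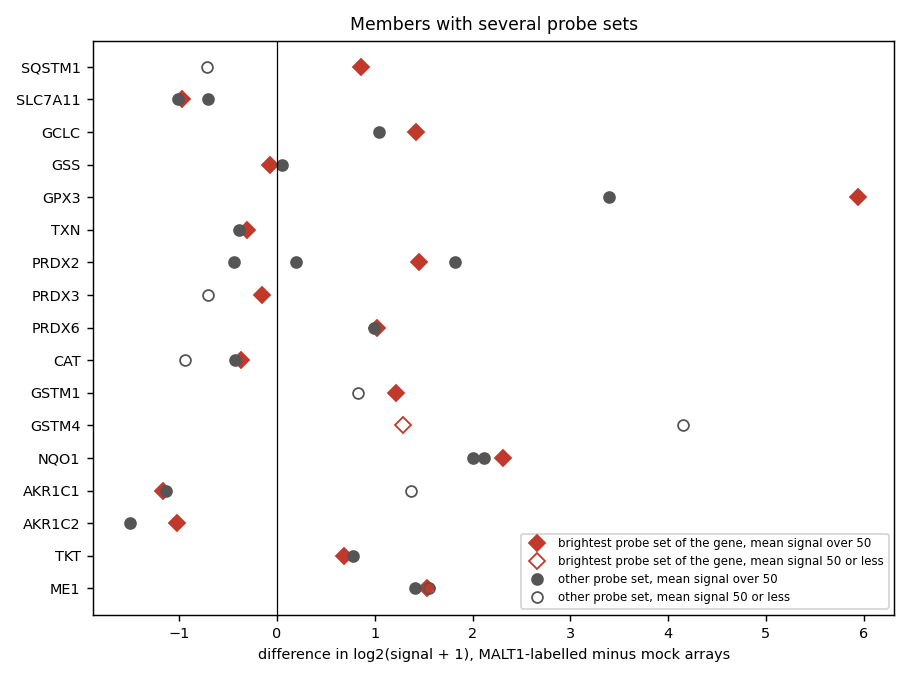
Difference in log2(signal + 1), arrays labelled MALT1 minus mock arrays, for every single-symbol probe set of the 17 redox genes with more than 1 (diamonds for the brightest, circles for the others, open where the mean signal over all arrays is 50 or less). The 3 probe sets of NQO1 lie close together between 2.0 and 2.32, while those of PRDX2 and AKR1C1 fall on both sides of 0.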

How the data were processed

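The authors deposited linear intensity values, 1 per probe set and array, in a table of 22277 probe sets. The summarising software was not given in the sources used here. By its values, each array had been scaled to a mean of about 500.2 after trimming 2% at each end. Without 62 control probe sets, the remaining 22215 were tested as log2(signal + 1) with limma 3.58.1 in R 4.3.3 (lmFit, eBayes, group as the only term, all 6 arrays). Two-sided p-values received Benjamini-Hochberg adjustment across the 22215, and differences are MALT1-labelled minus mock arrays. Genes were named from the platform annotation for 19064 probe sets with a single symbol, checked by gene ID against RefSeq (19052 matched), and the brightest probe set stood for a gene. The array names no build, and RefSeq coordinates apply to the promoter table only.

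Arrays were grouped by their titles. Every redox gene is accounted for, and full values are given for regulators and, in each role class, for up to 4 that passed without overlap and with the largest difference, with further genes added after their values were seen. From the wider list up to 4 risers and 4 fallers were named likewise, and others were added in the same way. The genes, lists (redox, squamous, luminal, mesenchymal, leukocyte) and dim level were chosen with earlier results of these data known. The fit was tested on simulated data. The alternatives were a pseudocount of 16, a filter on dim probe sets, median centring, quantile normalization, the mean of a gene's probe sets, limma-trend, the replicate number as a block, and leaving out each array. Promoters were searched with Python 3.11.15.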

Additional observations from a re-analysis of the deposited data

How the results depend on the processing

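Of 33 redox genes that passed, 25 kept their direction and their call in all 13 alternative settings, and none of the 33 changed sign. The number that passed was 28 with the replicate number as a block, 33 with each array centred on its median, 36 with the dim probe sets left out or with limma-trend, and 28 to 30 on leaving out 1 array. The block also ended the calls of GPX4, TXN, CAT, GSTM4 and MGST3 (adjusted p = 0.0517 to 0.128). Same-numbered arrays showed deviations from their group means with correlations of 0.059, −0.0025 and 0.061. Differently numbered arrays had correlations of −0.082 to 0.048. With 3 arrays a group these values cannot decide whether the numbers pair the samples. The median difference of the redox genes, 0.19, was 0.059 after median centring, 0.23 after quantile normalization, 0.072 with the mean of a gene's probe sets, and 0.18 to 0.24 without 1 array. Centring moved the median of all probe sets to −0.05, against 0.08. Small differences that had not passed changed sign in some settings. After median centring they were −0.12 for MAFG, −0.10 for GCLM and −0.13 for EPHX1, and EPHX1 was −0.32 after quantile normalization. On leaving out 1 array, MAFG ranged from −0.083 to 0.10, GCLM from −0.019 to 0.063, PRDX4 from −0.051 to 0.026 and EPHX1 from −0.43 to 0.35. CBR1 passed as lower with a pseudocount of 16, the dim filter, median centring, the mean of probe sets and limma-trend (adjusted p = 0.00408 to 0.0386). The cause of these changes was not tested. The dim filter left 44 of the 45 redox genes in the fit.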
